A study of Mus musculus with 11 samples.

Results

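The insulin-like growth factor (IGF) system was examined in embryonic mouse hearts that differed in their Gata4 and Nkx2-5 alleles. The 10 genes were the ligands Igf1 and Igf2, the receptors Igf1r and Igf2r, and the binding proteins Igfbp2, Igfbp3, Igfbp4, Igfbp5, Igfbp6 and Igfbp7. They were chosen by name, with earlier results of these data known, so counts of them beside all genes are descriptions and not tests. Every probe set annotated to a single one of these symbols was taken. This gave 28 of the 45037 probe sets tested and 10 of the 18193 named genes. The hearts were pooled at embryonic day 9.5 and hybridised to 11 one-colour arrays. The control group was Gata4 flox/+; Nkx2-5 +/+ (3 arrays), the double heterozygous group was Gata4 flox/+; Nkx2-5 cre/+ (3 arrays), and the conditional knockout (CKO) group was Gata4 flox/flox; Nkx2-5 cre/+ (5 arrays). Every group therefore carried at least 1 floxed Gata4 allele. The 8 arrays with Cre also carried it at the Nkx2-5 locus, so that CKO and control differed in Cre and in an Nkx2-5 allele as well as in the Gata4 alleles, while CKO and double heterozygous hearts differed in the Gata4 alleles alone. Cre from this locus acts in cells that express Nkx2-5, such as cardiac progenitors and myocardium, and not in every cell of the heart. The labels do not state whether arrays of a group came from separate pools, and the p-values therefore reflect the variation among these arrays alone, which may be technical.

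IGF1 and IGF2 are secreted peptides that signal through the tyrosine kinase receptor IGF1R. IGF2R, the cation-independent mannose 6-phosphate receptor, takes up IGF2 and delivers it to lysosomes. The secreted IGF binding proteins hold the ligands and set how much of them reaches the receptor, and proteases that cleave the binding proteins free the ligands again. In the mid-gestation heart, IGF2 from the epicardium and endocardium is known as a mitogen for ventricular cardiomyocytes.

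Signals are given below as log2(intensity + 16) after quantile normalisation, each group as mean ± SD, and differences as log2 differences with the standard error (SE) of the limma fit. A gene was called where its limma p-value, adjusted by the Benjamini-Hochberg method over all 45037 probe sets, was under 0.05. The depth of an array is not expressed in reads, and the number of arrays limits the precision. Mean deposited intensity was 166.4 to 175.6 on 10 arrays and 117.2 on CKO replicate 3. The beta-actin controls showed a 3′ minus 5′ log2 difference of 0.273 to 0.454 on 10 arrays and 1.05 on CKO replicate 2, a measure that rises where RNA or its copies are shortened. The Nkx2-5 probe set (1449566_at) read 9.83 to 9.93 in control, 9.37 to 9.54 in double heterozygous and 8.78 to 9.64 in CKO arrays. All arrays labelled with Cre thus lay below all control arrays. The differences from control were -0.39 for double heterozygous and -0.53 for CKO arrays (adjusted p = 0.099 for CKO), and neither was called. The Gata4 probe sets did not check the labels. On 1 of them (1418863_at) the signal was 1.37-fold higher in the CKO-labelled than in the control arrays (adjusted p = 0.0321). The double heterozygous arrays, at 9.21 to 9.40, also lay above the control arrays there (8.77 to 9.09). CKO minus double heterozygous was only 0.12 on 1418863_at (adjusted p = 0.668), so its rise was not particular to the CKO label. On the other Gata4 probe set (1418864_at) the signal was 1.06-fold higher in CKO than in control arrays (adjusted p = 0.958). The value for 1418864_at holds CKO replicate 2 at 6.42, where the other 4 CKO arrays read 8.26 to 8.81 and the control arrays 7.98 to 8.15. Whether either lies within the deleted part of Gata4 was not given in the sources used here, and the arrays are called CKO by their label throughout.

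Igfbp3 rose 4.47-fold against control (SE 0.198 on a log2 difference of 2.16, 5 against 3 arrays). Igfbp2 rose 1.64-fold (SE 0.166 on 0.72, adjusted p = 0.0479), a call lost in 18 of 24 alternative settings. Both ligands, both receptors and the other 4 binding proteins missed the threshold. In CKO minus control, 2 of the 10 genes were called, both higher, where 2.06% of all named genes were called and 1.20% were called higher. Against double heterozygous hearts 1 of the 10 genes was called, Igfbp3, where 0.517% of all named genes were called. Between double heterozygous and control hearts 0 of the 10 genes and 0 of the 45037 probe sets were called in the limma test (0% of all named genes). By their representative probe sets, 0 of the 10 genes and 529 of all named genes had an unadjusted p under 0.05 in that comparison. So did 1 of the 28 IGF probe sets (of Igfbp5) and 1435 of all 45037 probe sets. Alternative settings called 0 to 8 probe sets. In this bulk RNA, a gene transcribed in fewer cells and a gene with less RNA per cell cannot be told apart.

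**Figure D1:**
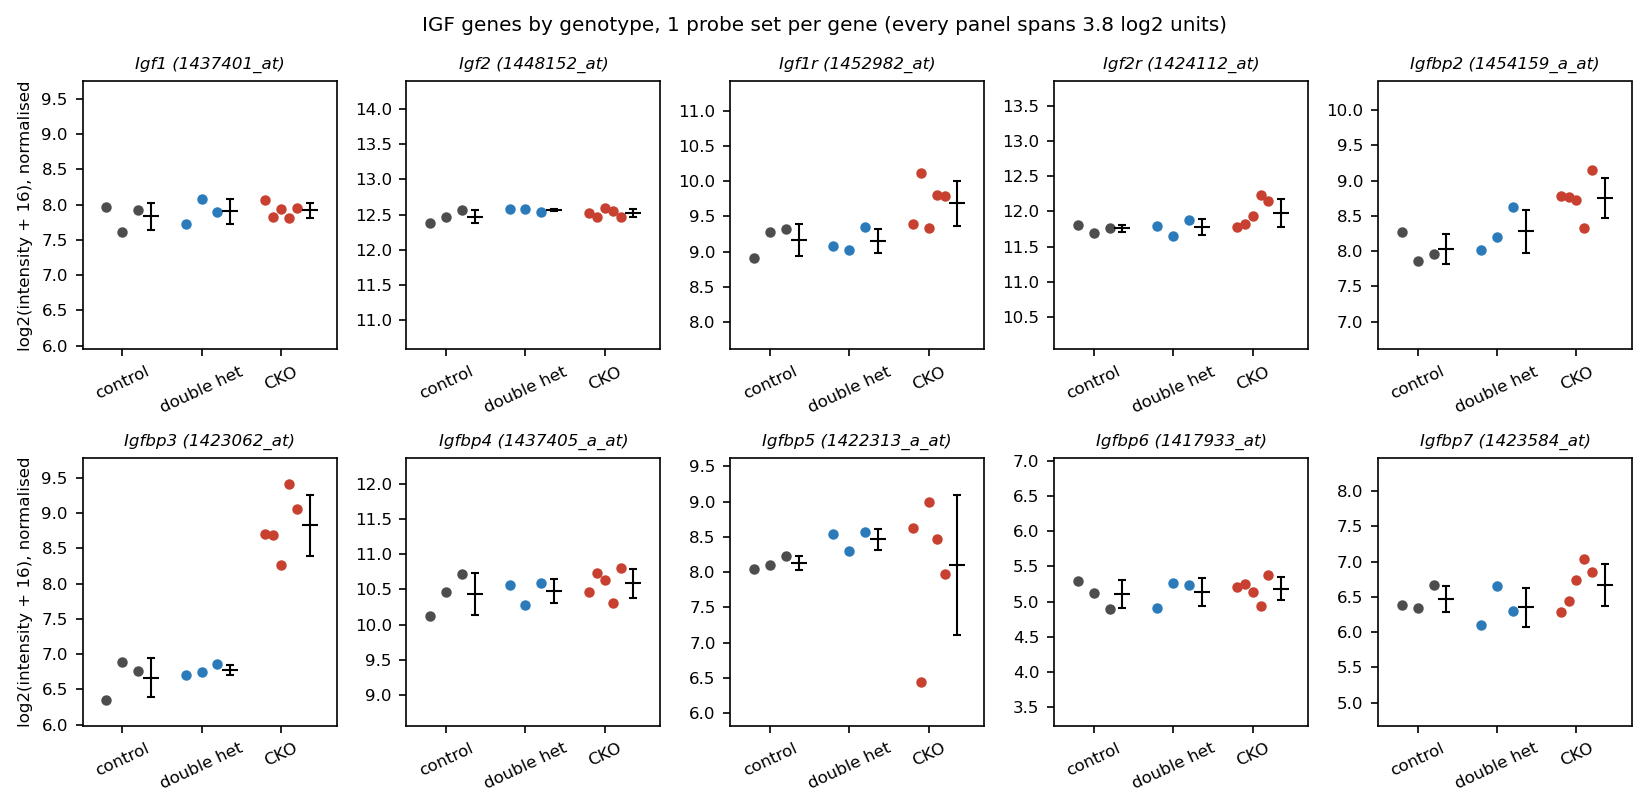
Signal of the 10 IGF genes on each of the 11 arrays, as log2(intensity + 16) after quantile normalisation, with 1 panel and 1 probe set for each gene. Points are arrays, and the horizontal tick with its bar is the group mean ± SD. The 5 CKO points of Igfbp3 lie between 8.27 and 9.41, above all 6 other arrays.

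The group means of 9 of the 10 genes were higher in CKO than in control hearts, with a median difference of 0.18 against -0.02 over all named genes. That number depends on the scaling. With the deposited PLIER values not scaled further (called unscaled below), or with arrays centred on their medians, 6 of the 10 were higher. The medians of the 10 were then 0.09 and 0.08, against -0.07 and -0.08 over all named genes. The overall balance of calls moved too. Between CKO and control, 59.7% of the 632 probe sets called after quantile normalisation (1.40% of all tested) were higher, against 48.9% of 92 called with unscaled values and 39.2% of 362 called with median centring. In CKO minus double heterozygous the shares were 82.2% of 157, 86.7% of 15 and 66.2% of 65. Signals of all 5 CKO arrays lay above all 3 control arrays for 3 of the 10 genes (Igfbp3, Igfbp2 and Igf1r), where the groups did not overlap, in that direction, for 4.51% of all named genes.

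**Figure D2:**
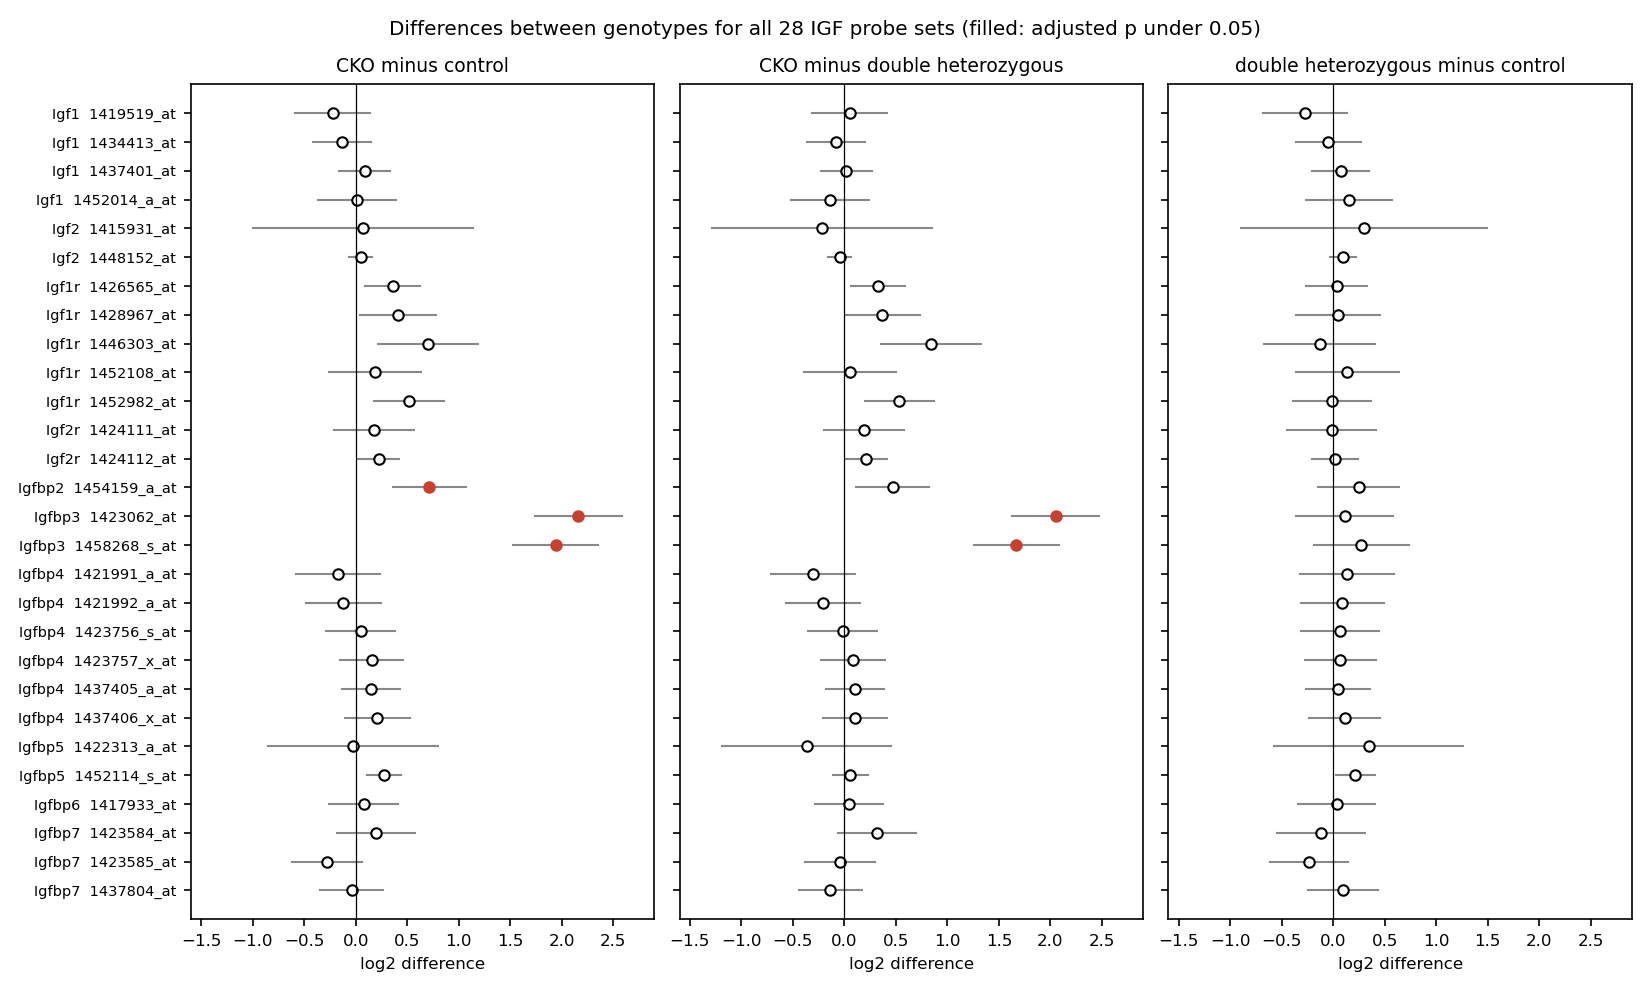
Log2 differences of all 28 IGF probe sets in the 3 comparisons, with 95% confidence intervals of the limma fit as bars. The intervals for Igfbp3 1423062_at run from 1.74 to 2.58 (CKO minus control) and from 1.63 to 2.47 (CKO minus double heterozygous). Its double heterozygous minus control interval, -0.36 to 0.58, includes 0.

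Neither ligand gene was called in any comparison. Igf2, the main fetal ligand, was read by probe set 1448152_at at 12.38, 12.47 and 12.56 in control arrays, at 12.58, 12.58 and 12.54 in double heterozygous arrays, and at 12.53, 12.46, 12.59, 12.55 and 12.47 in CKO arrays. The 3 groups overlapped, and the whole series spanned little more than the spread within the control group. The mean signal of this probe set ranked at percentile 99.82 of all probe sets. Whether so bright a signal could show a change was not tested. Igf2 differed between CKO and control by 0.05 (SE 0.0529, 95% interval -0.06 to 0.16, adjusted p = 0.764). Its sign turned with unscaled values (-0.056) and with median centring (-0.064).

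The other Igf2 probe set, 1415931_at, gave a different picture of a single array. It read 7.59, 7.79 and 8.14 in control arrays, 8.21, 7.79 and 8.40 in double heterozygous arrays, and 8.09, 5.66, 8.69, 8.67 and 8.44 in CKO arrays. CKO replicate 2 was the low one, and the CKO mean was 7.91 ± 1.28 (SD, n = 5). Between CKO and control it differed by 0.07 (SE 0.501, adjusted p = 0.972) with all arrays and 0.63 (adjusted p = 0.0756) without CKO replicate 2.

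Igf1, the ligand better known for growth after birth, had 4 probe sets. Its representative, 1437401_at, averaged 7.83 ± 0.197 in control arrays (n = 3), 7.90 ± 0.177 in double heterozygous (n = 3) and 7.92 ± 0.103 in CKO arrays (n = 5), a difference between CKO and control of 0.09 (SE 0.116, 95% interval -0.16 to 0.34, adjusted p = 0.822). On the other 3 probe sets that difference was -0.22, -0.13 and 0.01. The 4 probe sets did not share a sign, and the sign of the representative turned with unscaled values (-0.063) and with median centring (-0.071).

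Igf1r, the signalling receptor, gave higher CKO means on all 5 of its probe sets against both other groups after quantile normalisation. None of them was called. The brightest, 1452982_at, read 8.91, 9.27 and 9.32 in control arrays, 9.08, 9.03 and 9.35 in double heterozygous arrays, and 9.39, 10.12, 9.33, 9.80 and 9.78 in CKO arrays. All 5 CKO arrays lay above the control arrays, replicate 3 only just, and CKO replicate 3 lay below the highest double heterozygous array. The differences were 0.52 against control (SE 0.158, 95% interval 0.18 to 0.86, adjusted p = 0.137) and 0.53 against double heterozygous (SE 0.158, adjusted p = 0.187). Arrays weighted by their quality brought the first of these past the threshold (0.49, adjusted p = 0.0293), and no other setting did so for 1452982_at. Over 24 alternative settings Igf1r differed by 0.36 to 0.61 from control (adjusted p up to 0.625). Against double heterozygous it was 0.36 to 0.63 (up to 0.65). The remaining Igf1r probe sets differed from control by 0.36, 0.41, 0.70 and 0.19, with adjusted p-values of 0.196, 0.307, 0.163 and 0.774. The last of these, 1452108_at, differed from double heterozygous by only 0.05. These remaining probe sets were not read singly under other scalings. The 5 probe sets come from the same arrays and are not replicates of each other.

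Igf2r, the clearance receptor, had 2 probe sets and was called on neither. The brighter, 1424112_at, averaged 11.76 ± 0.0548 in control arrays, 11.77 ± 0.115 in double heterozygous and 11.98 ± 0.2 in CKO arrays. Its CKO minus control difference was 0.22 (SE 0.0946, 95% interval 0.02 to 0.43, adjusted p = 0.314), and CKO replicates 4 and 5, at 12.24 and 12.14, were the highest of the series. It was 0.08 with unscaled values and with median centring, and 0.09 with the replicate number as a block. For 1424111_at the difference was 0.18 (SE 0.182, adjusted p = 0.753). A further probe set is annotated to both Igf2r and its antisense neighbour Airn and was left out.

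Igfbp3 encodes the binding protein that carries most circulating IGF after birth, and its 2 probe sets both separated CKO from the other groups. Probe set 1423062_at read 6.36, 6.88 and 6.76 in control arrays, 6.71, 6.75 and 6.86 in double heterozygous arrays, and 8.70, 8.70, 8.27, 9.41 and 9.05 in CKO arrays. The lowest CKO array lay well above the highest of the other 6. The CKO minus control difference of 2.16 (SE 0.198, adjusted p = 8.39e-05) was the largest rise of the 18193 named genes on the quantile-normalised scale. Against double heterozygous hearts the difference was 2.05 (SE 0.198, 4.15-fold, adjusted p = 0.000267), and between double heterozygous and control hearts it was 0.11 (SE 0.221, adjusted p = 1).

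The rise was present in the deposited PLIER intensities as well, before the quantile normalisation made here. Igfbp3 (1423062_at) averaged 90.47 ± 23.5 intensity units in control arrays, 94.75 ± 4.54 in double heterozygous and 444.7 ± 176 in CKO arrays, ratios of 4.92 and 4.69. The offset of 16 makes the log2 differences slightly smaller than these ratios. The CKO minus control call held in all 24 alternative settings, with differences of 1.75 to 2.38. The CKO minus double heterozygous call was lost in 1 setting, without variance moderation (adjusted p = 0.0737).

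The other Igfbp3 probe set, 1458268_s_at, read 6.51, 6.90 and 6.59 in control arrays, 6.85, 7.01 and 6.96 in double heterozygous arrays, and 8.47, 8.19, 8.30, 9.25 and 8.83 in CKO arrays. CKO replicates 4 and 5 were the highest on both probe sets, and the groups did not overlap. Its differences were 1.94 against control (SE 0.195, 3.84-fold, adjusted p = 0.000133) and 1.67 against double heterozygous hearts (SE 0.195, 3.18-fold, adjusted p = 0.00201). In the limma F test over the 3 genotypes, Igfbp3 was the only one of the 10 genes called, on both probe sets, where 1.47% of all named genes were called.

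Igfbp2, a binding protein abundant in embryonic tissues, had a single probe set, 1454159_a_at. It read 8.28, 7.87 and 7.97 in control arrays, 8.02, 8.20 and 8.62 in double heterozygous arrays, and 8.78, 8.77, 8.73, 8.34 and 9.15 in CKO arrays. All CKO arrays lay above the control arrays, replicate 4 only just, and CKO replicate 4 fell within the double heterozygous range. The CKO minus control difference was 0.72 (SE 0.166, 95% interval 0.36 to 1.07, adjusted p = 0.0479), just past the threshold. That call was lost in 18 of 24 alternative settings, and over all 24 the difference stayed between 0.56 and 0.83 and the adjusted p ranged from 0.00854 to 0.398. Leaving out control replicate 1, 2 or 3 ended the call (adjusted p = 0.0988, 0.255 and 0.194). So did leaving out CKO replicate 1, 2, 3 or 5 (0.0614, 0.0504, 0.0535 and 0.108) or double heterozygous replicate 1 or 2 (0.0612 and 0.0703). CKO minus double heterozygous was 0.47 (SE 0.166, 95% interval 0.12 to 0.82, adjusted p = 0.27, 0.30 with median centring), and double heterozygous minus control was 0.25 (95% interval -0.15 to 0.64, adjusted p = 1).

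The start-site windows of the 2 called genes are shown because Gata4 encodes a GATA-binding factor and the study altered it. Each is 300 bases, from 250 before to 50 after the RefSeq start (GRCm38.p6), read 5′ to 3′ on the gene's strand. Igfbp3 lies on the minus strand (chr11:7213874-7214173) and Igfbp2 on the plus strand (chr1:72824230-72824529, the first of its 2 windows). Capitals mark matches, on either strand, to AGATAA or AGATAG, to the same letters with T in front (TGATAA and also TGATAG), and to ACGTG. The first 4 are forms of the GATA motif, and ACGTG is a form of the core bound by hypoxia-inducible and related basic helix-loop-helix factors. Other forms of either were not searched.
Igfbp3: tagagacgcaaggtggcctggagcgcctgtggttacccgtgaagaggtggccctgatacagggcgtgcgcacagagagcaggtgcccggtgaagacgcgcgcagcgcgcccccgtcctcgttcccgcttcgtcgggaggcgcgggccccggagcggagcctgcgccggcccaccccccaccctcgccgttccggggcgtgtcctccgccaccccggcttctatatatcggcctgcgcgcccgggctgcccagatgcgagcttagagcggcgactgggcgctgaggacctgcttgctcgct
Igfbp2: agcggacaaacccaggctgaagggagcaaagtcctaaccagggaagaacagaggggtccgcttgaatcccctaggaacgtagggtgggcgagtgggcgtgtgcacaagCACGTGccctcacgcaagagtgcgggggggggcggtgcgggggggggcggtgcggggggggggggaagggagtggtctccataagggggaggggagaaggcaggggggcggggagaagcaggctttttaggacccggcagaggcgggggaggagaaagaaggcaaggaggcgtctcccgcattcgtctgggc
The Igfbp3 window held none of the forms searched, which leaves other forms unread. The Igfbp2 window held 1 palindrome that matches ACGTG on both strands, at -142 and -141 from the start. Over 32851 RefSeq windows of the same length, 29.8% held a GATA match and 19.6% an ACGTG match. Among the 14 windows of the 10 genes, 2 held a GATA match (Igf1 and Igfbp6) and 4 an ACGTG match (Igf2, Igf2r, Igfbp2 and Igfbp7). A match is a description of letters in this window, and a window without one says nothing about binding elsewhere.

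Igfbp5, a binding protein that also attaches to extracellular matrix, had 2 probe sets that differed on CKO replicate 2. Probe set 1452114_s_at read 10.77, 10.90 and 10.82 in control arrays, 11.02, 10.91 and 11.20 in double heterozygous arrays, and 11.002, 11.07, 11.10, 11.28 and 11.05 in CKO arrays. Both groups with Cre lay above all control arrays. Of all 45037 probe sets, 1768 did so for CKO and 2113 for double heterozygous arrays. The differences from control were 0.27 for CKO (SE 0.078, 95% interval 0.11 to 0.44, adjusted p = 0.112) and 0.21 for double heterozygous (SE 0.0873, 95% interval 0.03 to 0.40, adjusted p = 1), neither of them called, and these comparisons share the control arrays. The CKO difference of Igfbp5 1452114_s_at was past the threshold with array weights (0.26, adjusted p = 0.0402), and was 0.12 with unscaled values and 0.11 with median centring.

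The Igfbp5 probe set taken as representative, 1422313_a_at, read 8.05, 8.10 and 8.23 in control arrays, 8.54, 8.30 and 8.57 in double heterozygous arrays, and 8.63, 6.44, 8.99, 8.47 and 7.97 in CKO arrays. CKO replicate 2 was again the low array. The CKO minus control difference of Igfbp5 was -0.03 (SE 0.387, adjusted p = 0.987) with all arrays and 0.39 (adjusted p = 0.304) without CKO replicate 2. The double heterozygous arrays again lay above the control arrays, by 0.34 (SE 0.432, adjusted p = 1). This SE rests on the spread of all 3 groups, and without CKO replicate 2 it was 0.184. By representative probe sets, Igfbp5 was the only one of the 10 genes with no overlap between double heterozygous and control arrays. In that direction 4.91% of all named genes had none. A dim Igf1 probe set, 1419519_at, did not overlap either and was lower, at 5.65 to 5.742 against 5.743 to 6.20 in control arrays. Of all 45037 probe sets, 2547 were lower without overlap between these 2 groups.

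On CKO replicate 2, Igf2 1415931_at differed from the mean of the other 4 CKO arrays by -2.81 and Igfbp5 1422313_a_at by -2.07. The partner probe sets of the same genes, 1448152_at and 1452114_s_at, differed by -0.07 and -0.03. Over the array, 76 of 45037 probe sets (0.169%) were lower there by at least 2, of which 2 were IGF probe sets, against 13 probe sets on CKO replicate 3 and 0 on each of the other CKO arrays. CKO replicate 2 is also the array with the beta-actin difference of 1.05, and the part of this in the Igf2 and Igfbp5 values was not tested.

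**Figure D3:**
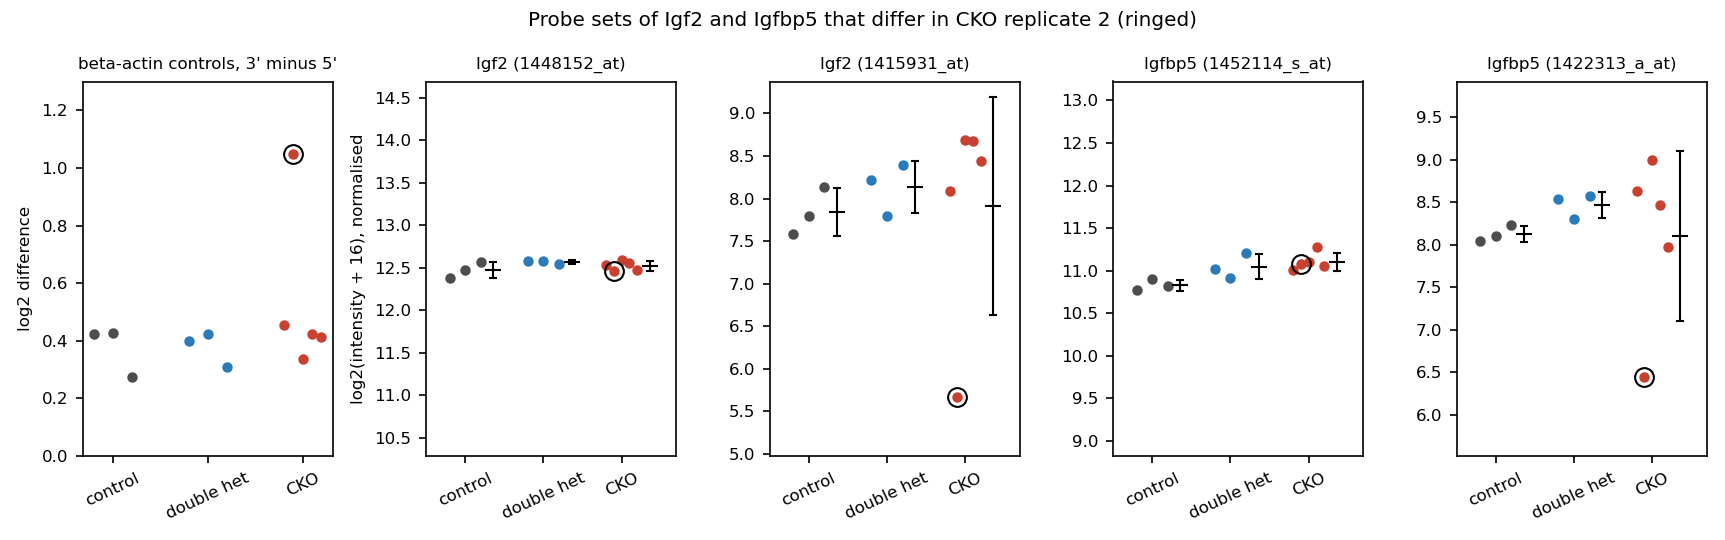
The left panel plots the 3′ minus 5′ log2 difference of the beta-actin controls for each array, and the other panels plot log2(intensity + 16) after normalisation for 2 probe sets of Igf2 and 2 of Igfbp5, with the group mean ± SD beside the points. CKO replicate 2 is ringed: it reads 1.05 for beta-actin, 5.66 for Igf2 1415931_at and 6.44 for Igfbp5 1422313_a_at, and lies with its group for the partner probe sets.

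Igfbp4, whose IGF-binding form is cleaved by the protease PAPP-A, had 6 probe sets and no call. Its CKO minus control differences ran from -0.17 to 0.21, 4 above and 2 below 0, with adjusted p-values of 0.597 to 0.937. The representative, 1437405_a_at, averaged 10.44 ± 0.297 in control arrays, 10.48 ± 0.172 in double heterozygous and 10.59 ± 0.204 in CKO arrays, a difference of 0.15 (SE 0.132, 95% interval -0.13 to 0.43) that turned to -0.017 with unscaled values and -0.025 with median centring.

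Igfbp6, which prefers IGF2 over IGF1, was dim and was not called. Igfbp6 (1417933_at) averaged 5.10 ± 0.198 in control arrays, 5.14 ± 0.2 in double heterozygous and 5.18 ± 0.164 in CKO arrays, where an intensity of 0 stands at 4 before normalisation. Between CKO and control Igfbp6 differed by 0.08 (SE 0.156, adjusted p = 0.892), and a true change of so dim a transcript would be understated. Igfbp7, a low-affinity relative found in vascular cells, was not called either. Its representative (1423584_at) averaged 6.47 ± 0.179, 6.35 ± 0.279 and 6.67 ± 0.303 in the same order, a difference of 0.20 (SE 0.178, adjusted p = 0.703) that was 0.10 with both other scalings. Its other probe sets differed by -0.28 and -0.04, both at dim signals of 4.03 to 5.30.

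**Figure D4:**
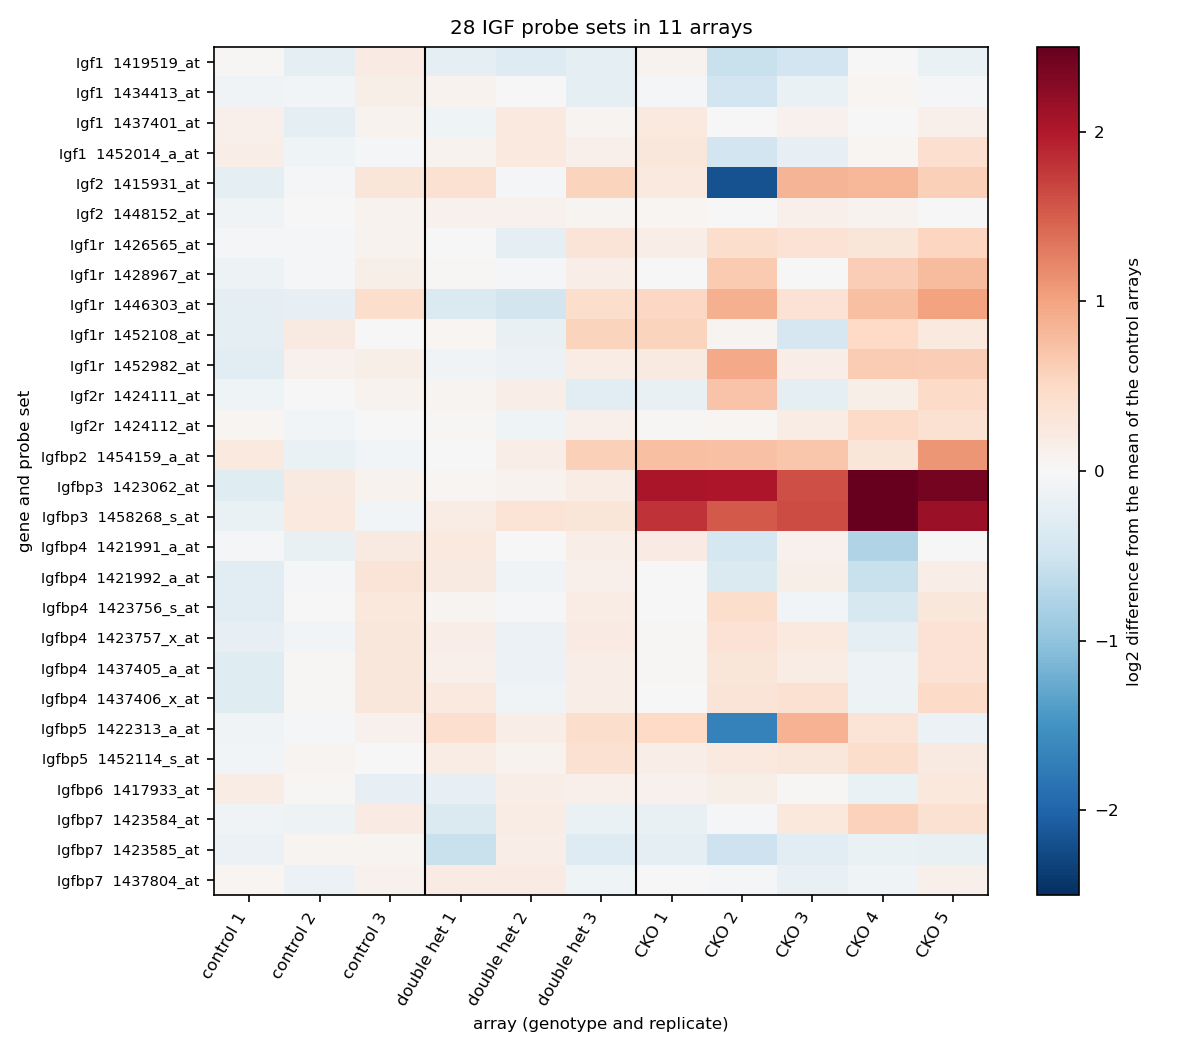
All 28 IGF probe sets (rows) on the 11 arrays (columns), as the log2 difference from the mean of the 3 control arrays, with lower values in blue and higher values in red. The 2 Igfbp3 rows are red on all 5 CKO arrays, and the single dark blue cells belong to CKO replicate 2.

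Over the 28 probe sets, 3 were called in CKO minus control (2 of Igfbp3 and 1 of Igfbp2), where 1.40% of all probe sets were. In CKO minus double heterozygous 2 were called, both of Igfbp3, where 0.349% of all were. Without overlap between CKO and control arrays, 6 of the 28 were higher and 1 was lower (Igfbp7 1423585_at). Of all 45037 probe sets, 1768 were higher and 2615 lower in this way.

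Genes that act beside the IGFs were read from a list of 43, of which 38 were measured and the rest were not analysed here. This list too was chosen with earlier results of these data known, and its counts are descriptions. In CKO minus control, 2 of the 38 were called, both higher, where 2.06% of all named genes were called and 1.20% were called higher, and the median difference was 0.06 against -0.02 over all named genes. They were Stc1, a secreted stanniocalcin known to inhibit PAPP-A, and Irs1, the adaptor that couples insulin and IGF receptors to PI3-kinase. Against double heterozygous hearts 1 of 38 was called, Stc1, where 0.517% of all named genes were, and between double heterozygous and control hearts none was.

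Among the 8 genes of proteins that bind or process IGF binding proteins, 1 was called. Stc1 (1450448_at) read 5.45, 5.91 and 5.87 in control arrays, 5.69, 5.91 and 5.84 in double heterozygous arrays, and 6.97, 7.26, 6.80, 7.71 and 7.20 in CKO arrays. All CKO arrays lay above all others. It rose by 1.44 against control (SE 0.184, 2.72-fold, adjusted p = 0.000842, 0.93 with an offset of 64) and by 1.37 against double heterozygous hearts (SE 0.184, adjusted p = 0.00413), the latter lost without double heterozygous replicate 1 (adjusted p = 0.0661), with unscaled values (adjusted p = 0.0672) and without variance moderation (adjusted p = 0.0833).

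Pappa, the gene of the PAPP-A protease, had the next smallest p of that group and missed the threshold. Its probe set 1427633_a_at read 5.88, 5.80 and 5.90 in control arrays, 5.69, 5.64 and 5.73 in double heterozygous arrays, and 5.18, 5.55, 5.28, 5.48 and 5.34 in CKO arrays. The 3 groups did not overlap, in the order control, double heterozygous, CKO. Of 18193 named genes, 1390 were lower without overlap in CKO minus control and 1034 in CKO minus double heterozygous. In double heterozygous minus control 1090 were. How many genes met all 3 at once was not counted. Against control, Pappa differed in CKO by -0.49 (SE 0.134, 95% interval -0.78 to -0.21, adjusted p = 0.0939) at a dim signal, and -0.25 with an offset of 64. It came past the threshold with array weights (adjusted p = 0.0196), without CKO replicates 2 and 3 (0.0465) and without variance moderation (0.0493).

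Of the 11 receptor and adaptor genes, 1 was called. Irs1 (1423104_at) read 9.57, 9.62 and 9.46 in control arrays, 9.73, 9.74 and 9.73 in double heterozygous arrays, and 9.87, 9.88, 9.98, 10.28 and 10.02 in CKO arrays. Again the 3 groups did not overlap. Of 18193 named genes, 820 were higher without overlap in CKO minus control and 621 in CKO minus double heterozygous. In double heterozygous minus control 894 were, and genes that met all 3 were not counted. Irs1 rose by 0.46 in CKO against control (SE 0.0916, 1.37-fold, adjusted p = 0.0236), a call lost in 10 of 24 alternative settings, among them without control replicate 1, 2 or 3 (adjusted p = 0.117, 0.0853 and 0.14) and without CKO replicate 5 (0.0615). It was 0.31 with unscaled values and 0.30 with median centring. CKO minus double heterozygous was 0.27 (SE 0.0916, adjusted p = 0.254), and 0.14 and 0.09 with these scalings. Irs2, the related adaptor (1443969_at), read 6.18 ± 0.157 in control arrays, 6.26 ± 0.148 in double heterozygous and 6.73 ± 0.302 in CKO arrays, a CKO minus control difference of 0.55 (SE 0.166, adjusted p = 0.132), and 0.36 with an offset of 64.

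None of the 17 genes of the PI3-kinase, AKT, mTOR and FOXO branch was called in CKO minus control, with 9 higher and 8 lower means. The 2 with the smallest p were Foxo3, a transcription factor that AKT keeps out of the nucleus, at 0.50 (SE 0.158, adjusted p = 0.155), and Eif4ebp1, a translation repressor that mTOR phosphorylates, at 0.21 (SE 0.0743, adjusted p = 0.213). Foxo3 came past the threshold with array weights (adjusted p = 0.0142), without CKO replicate 3 (0.0276) and without CKO replicates 2 and 3 (0.0305). Eif4ebp1 did so with array weights (0.0478), while its difference was 0.05 with both other scalings. The proteins that bind Igf2 mRNA gave 0.14 for Igf2bp3 (adjusted p = 0.664) and -0.02 for Igf2bp1 (adjusted p = 0.954).

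**Figure D5:**
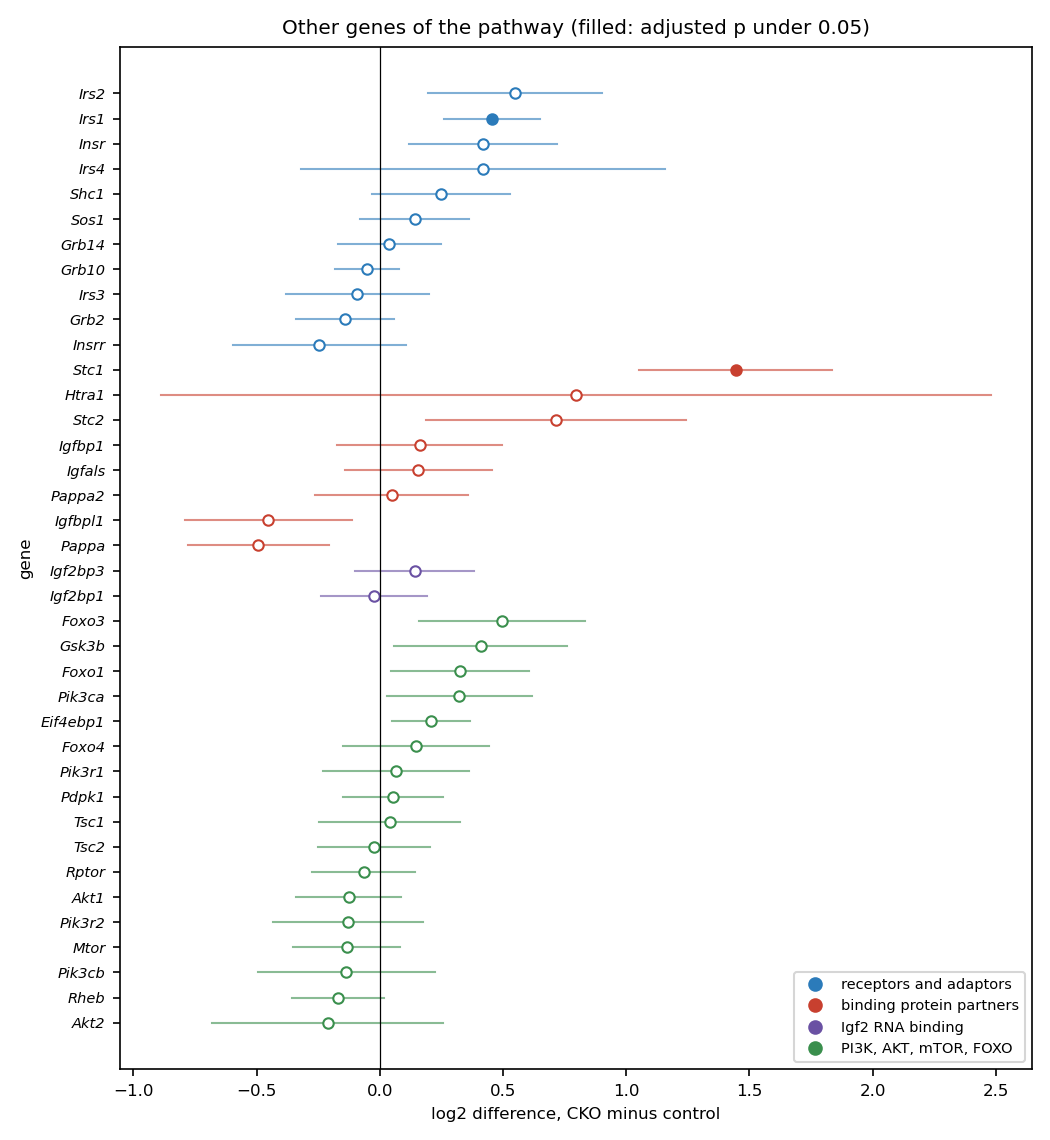
CKO minus control log2 differences of the 38 measured genes of the IGF pathway list, in 4 groups by role, with 95% confidence intervals as bars and the called genes marked. Stc1 (1.44) and Irs1 (0.46) are the 2 called genes.

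The pattern of Igfbp3 over the 11 arrays was compared with that of every other named gene by the mean absolute difference between their log2 differences from the control mean. The nearest of 18192 were Ier3 (0.261), Sparcl1 (0.279), Vldlr (0.280), Krt19 (0.312) and Ddit4 (0.335). Their own CKO minus control differences were 1.92, 1.94, 1.65, 1.59 and 1.76. They were picked for that pattern, so these values describe it and support nothing further.

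Marker genes of the cell types the hearts could hold were read beside the Igfbp3 and Igfbp2 differences. Of all named genes, 2.06% were called in CKO minus control. Of 7 myocardial markers 1 was called in CKO minus control (Myh7, 0.27 higher), and their summed deposited, unscaled intensity was 44261 to 45680 in control, 43095 to 46113 in double heterozygous and 43852 to 48639 in 4 CKO arrays. CKO replicate 3, the array of lower mean intensity, summed to 32788. Of 7 endothelial and endocardial markers, Kdr (0.68) and Cdh5 (0.63) were called higher and Tek (-0.65) lower, with sums of 2033 to 2165 in control and 1934 to 2173 in double heterozygous arrays. On 4 CKO arrays the endothelial sums were 2382 to 2701, above all arrays of the other groups, and on CKO replicate 3 the sum was 1533. Of 6 epicardial markers, Tcf21 (-1.31) and Lrrn4 (-1.20) were called lower, with sums of 1024 to 1142 in control and 501 to 789 in double heterozygous arrays, 325 to 516 on 4 CKO arrays and 930 on CKO replicate 4. None of the 6 measured erythroid, 5 liver bud and 5 neural markers was called, and of 6 foregut markers Krt8 was called higher (0.71), with 3 of the 6 below a median log2 signal of 5. Foregut sums were 770 to 877 in control, 860 to 1078 in double heterozygous and 898 to 1577 in CKO arrays. Every CKO array thus lay above the control arrays in this sum. A sum of intensities weighs bright markers most, and the mean log2 difference of the 6 foregut markers was 0.18. Liver bud sums were 84 to 190, 81 to 101 and, on 4 CKO arrays, 79 to 114, with 349 on CKO replicate 4. Neural sums were 79 to 82, 62 to 71 and 61 to 78 in the order of the groups, and erythroid sums overlapped. The part of these cell types in the Igfbp3 and Igfbp2 differences was not tested.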

How the data were processed

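Pooled hearts were lysed in TRIzol and 50 ng of RNA was amplified (Ovation, NuGen), as the labels' protocols state. The authors made the deposited intensity of each probe set, on a linear scale, with PLIER, per the submitters' processing notes. PLIER's version, background correction and scaling: not given in the sources used here. No detection calls were used.

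The 64 control probe sets were removed, 16 was added, values were set to log2 and quantile normalised (array medians had spanned 0.465). limma 3.58.1 in R 4.3.3 (lmFit, eBayes with trend) was fitted to 45037 probe sets over all 3 groups (8 residual degrees of freedom), with Benjamini-Hochberg adjustment over all of them for each comparison. Tests were two-sided. The fit was tested on simulated data. Annotation gave 1 symbol to 34945 probe sets, several to 932 and none to 9160. A gene was represented by its brightest probe set, passing over those marked as shared where another existed.

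All 10 members are named. From the pathway list, called genes and the 2 of smallest p in each of 4 subgroups are named. The members and lists were chosen with earlier results of these data known. Alternatives were the offset, scaling, moderation, array weights, a dim filter (mean intensity 50), a replicate block, a 2-group fit, averaged probe sets and left-out arrays. Same-numbered arrays had deviations that correlated at -0.0557 to 0.15. Arrays of different numbers were not compared, so this cannot decide whether the numbers pair arrays, and the main fit used no pairing.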

Additional observations from a re-analysis of the deposited data

Results flagged for a closer look

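Igf2 probe set 1415931_at on CKO replicate 2 read 5.66 on the log2 scale, against 8.09 to 8.69 on the other 4 CKO arrays, and its gap to the nearest array was over Dixon's 95% limit for 5 arrays (0.71). It was the only 1 of 28 probe sets tested in this way that passed, and chance marks about 1 group in 20. The cause was not tested.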

How the results depend on the processing

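Of 1283 log2 differences computed under alternatives, 1171 kept their direction and side of the threshold, 36 were no longer past it, 9 came past it and 67 turned sign, every 1 of the 67 an uncalled difference. Igfbp3 stayed called in CKO minus control under all 24. Depth here is signal over background, which limits Igfbp6 and Pappa. Igfbp6 and Pappa were not tested with dim probe sets left out, and probe sets called had no value with a gene's probe sets averaged. Causes were not tested.

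The 632 probe sets called in CKO minus control became 263 in 2-group fits, 2393 with array weights, 1362 without both of CKO 2 and CKO 3, 92 on the deposited scale, 1017 without dim probe sets, 362 with median centring, 281 with no intensity trend and 296 with no moderation. They were 168 to 897 leaving out each array in turn. The 157 of CKO minus double heterozygous became, in the same order, 61, 613, 650, 15, 260, 65, 53 and 1, and 15 to 415 leaving out each array. The 0 of double heterozygous minus control became 1 (2-group fit), 8 (array weights), 2 (without CKO 2 and CKO 3) and 1 (robust moderation). IGF genes called in CKO minus control were 1 in place of 2 in the 2-group fit, without CKO 2 and CKO 3, on the deposited scale, with median centring, no intensity trend, no moderation, offset 1 and offset 64, and 1 to 2 leaving out each array. With no moderation 0 IGF genes in place of 1 were called in CKO minus double heterozygous. Pathway genes called in CKO minus control were 1 in place of 2 in the 2-group fit, with median centring, with no intensity trend and on the deposited scale, 8 with array weights, 4 without CKO 2 and CKO 3, and 1 to 4 leaving out each array. In CKO minus double heterozygous the 1 became 3 with array weights, 2 without CKO 2 and CKO 3, 0 on the deposited scale, 2 with averaged probe sets, 0 with no moderation, and 0 to 2 leaving out each array.

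The check of the numbers could not decide whether the replicate block applies. With it, 265 probe sets were called in CKO minus control and 65 in CKO minus double heterozygous. Of the genes, 1 IGF gene (Igfbp3) and 1 pathway gene were called in CKO minus control. The block gave -0.36 for Igf2 1415931_at and 0.011 for Igf2bp1 in CKO minus control.

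Differences that turned sign were as follows. For CKO minus control, the deposited scale gave -0.063 for Igf1, -0.086 for Igf2 1415931_at, -0.056 for Igf2, -0.0045 for Igf2bp3 and -0.017 for Igfbp4. Median centring gave -0.071, -0.094, -0.064, -0.013 and -0.025 for the same probe sets. Averaged probe sets gave -0.064 for Igf1, 0.17 for Igf2bp1, 0.12 for Igfbp5 and -0.040 for Igfbp7. Igfbp5 became 0.035 with array weights, 0.019 with offset 64 and 0.23 without CKO 2 and CKO 3. For CKO minus double heterozygous, Igf1 became -0.10 (deposited scale), -0.15 (median centring) and -0.040 (averaged probe sets). Igfbp4 became -0.034, -0.082 and -0.041 in that order, and Igfbp5 1452114_s_at became -0.065 and -0.11 under the first 2 of these. Igf2 1415931_at became 0.27 without CKO 2 and CKO 3. For double heterozygous minus control, Igf1 became -0.025 and Igf1r 0.013 with averaged probe sets, Igf1r 0.0018 with median centring and Igf2r -0.011 on the deposited scale.

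Leaving out each array in turn, CKO minus control ran from -0.026 to 0.15 for Igf1, -0.13 to 0.63 for Igf2 1415931_at, -0.10 to 0.019 for Igf2bp1, -0.0048 to 0.29 for Igfbp4, -0.25 to 0.39 for Igfbp5 and -0.027 to 0.17 for Igfbp6. CKO minus double heterozygous ran from -0.071 to 0.11 for Igf1, -0.42 to 0.34 for Igf2 1415931_at, -0.0086 to 0.14 for Igfbp5 1452114_s_at, -0.59 to 0.047 for Igfbp5 and -0.071 to 0.11 for Igfbp6. Double heterozygous minus control ran from -0.041 to 0.16 for Igf1, -0.14 to 0.061 for Igf1r, -0.036 to 0.079 for Igf2r, -0.044 to 0.22 for Igfbp3, -0.11 to 0.19 for Igfbp4, -0.071 to 0.15 for Igfbp6 and -0.26 to 0.0062 for Igfbp7.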
